A study of Mus musculus with 9 samples.

Results

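The endoplasmic reticulum (ER) stress and ATF4 response genes were described by 10 genes, Atf4, Ddit3, Xbp1, Trib3, Asns, Chac1, Sesn2, Hspa5, Herpud1 and Dnajb9. They were taken by symbol from a table of read counts with 23955 gene rows, and each symbol matched 1 row. The counts came from RNA-seq of 9 mouse gut organoid cultures, which are epithelial cultures grown in a gel, in 3 groups of 3. MIN organoids were grown from the normal-appearing gut epithelium beside the tumors of APCmin/+ mice, Adenoma organoids from the adenomatous polyps of such mice, and Sulindac organoids from adenomatous polyps and then treated with sulindac, a nonsteroidal anti-inflammatory drug (NSAID) that inhibits cyclooxygenases. All groups, MIN included, carried the Apc mutation and were grown with Noggin, EGF, bFGF, R-spondin1 and B27. The age and number of the mice, the dose and duration of sulindac for the organoids, and whether the untreated cultures received a vehicle are not given in the sources used here. The replicates are called biological, without the animal each came from, so p-values measure the spread between these samples.

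When unfolded proteins build up in the ER, the sensors PERK, IRE1 and ATF6 start the unfolded protein response. PERK, like the kinases that sense amino acid shortage, heme deficiency or double-stranded RNA, phosphorylates the initiation factor eIF2alpha, which slows translation in general and favors that of the transcription factor ATF4, so that the ATF4 program (the integrated stress response) can run without ER stress. ATF6 and the spliced form of XBP1, made by IRE1, act mainly on genes for ER chaperones and for the removal of misfolded proteins. In the gut, secretory cells such as Paneth and goblet cells carry a heavy load of ER proteins and depend on this response. A count per gene shows neither the splicing of Xbp1, nor the phosphorylation of eIF2alpha, nor the amount of any protein.

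The promoters of the genes differ in the motifs that these branches are known to read. The 250 bases before each RefSeq start (GRCm38.p6) were searched on both strands for the ATF4 and C/EBP composite element TGATGNAA, for the ER stress element (CCAAT, 9 bases of any kind, then CCACG), for the ER stress element II (ATTGG, 1 base of any kind, then CCACG) and for the XBP1 element TGACGTGG. The composite element was found in 3 of the 10 windows, those of Asns, Chac1 and Herpud1, against 3.45% of the 32851 windows in the RefSeq table. The ER stress element was found before Hspa5 (0.113% of all windows) and element II before Herpud1 (0.0304%), while TGACGTGG (0.563%) was found before none of the 10. A match is a match of letters only, and no match says only that these letters are not in that window. The 4 windows with a match are shown 5′ to 3′ along the gene's own strand, with the matches in capitals. They lie at chr6:7693210-7693459, minus strand (Asns), chr2:119350992-119351241, plus strand (Chac1), chr8:94386179-94386428, plus strand (Herpud1) and chr2:34771840-34772089, plus strand (Hspa5).
Asns: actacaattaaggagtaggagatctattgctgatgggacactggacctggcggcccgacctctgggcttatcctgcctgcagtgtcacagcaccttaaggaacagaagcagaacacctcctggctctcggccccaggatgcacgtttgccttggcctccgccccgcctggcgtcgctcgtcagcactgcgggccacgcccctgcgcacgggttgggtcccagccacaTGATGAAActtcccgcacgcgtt
Chac1: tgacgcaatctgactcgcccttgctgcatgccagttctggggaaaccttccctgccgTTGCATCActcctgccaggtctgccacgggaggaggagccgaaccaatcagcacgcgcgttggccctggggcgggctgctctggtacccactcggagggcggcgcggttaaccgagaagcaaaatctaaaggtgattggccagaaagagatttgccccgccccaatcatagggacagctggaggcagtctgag
Herpud1: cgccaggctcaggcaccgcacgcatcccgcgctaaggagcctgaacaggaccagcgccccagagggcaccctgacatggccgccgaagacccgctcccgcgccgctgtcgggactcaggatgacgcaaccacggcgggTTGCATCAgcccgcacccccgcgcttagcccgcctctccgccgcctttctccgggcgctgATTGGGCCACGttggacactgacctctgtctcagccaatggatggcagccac
Hspa5: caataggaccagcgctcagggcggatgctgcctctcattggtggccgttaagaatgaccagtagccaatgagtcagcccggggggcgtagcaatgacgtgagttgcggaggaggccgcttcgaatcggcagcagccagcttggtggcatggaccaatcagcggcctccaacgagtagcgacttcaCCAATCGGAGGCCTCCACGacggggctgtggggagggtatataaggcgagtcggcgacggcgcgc
In Asns the composite element stood 23 to 16 bases before the start, on the gene's strand. In Chac1 it stood on the opposite strand, 193 to 186 bases before the start. In Herpud1 it stood on the opposite strand 112 to 105 bases before the start, with element II 52 to 42 bases before it. In Hspa5 the ER stress element stood 65 to 47 bases before the start. The RefSeq build is not the one listed for the counts, mm9, so these coordinates apply to the sequences alone.

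The libraries held 30881206 to 48412477 counts each. Levels are in CPM, the usual scale of read counts relative to the library total, here after TMM scaling. The floor of 3 counts came to 0.0641 to 0.10 CPM and covers counting error only. MIN 3 and Adenoma 3 stood apart from the other replicates of their groups, with a chi-square per gene of 69.0 to 81.7 against them, compared with 18.6 to 33.4 for the other pairs. MIN 3 was the highest MIN sample for all 10 genes, and Sulindac 1 the lowest Sulindac sample for 9 of them. Values without these libraries are given where they change a call. The 5 epithelial marker genes summed to 2900 to 6307 CPM in the 9 samples, and no sample had more than 8 counts of any of the 4 leukocyte genes.

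Atf4, Ddit3, the ATF4 targets Trib3, Asns and Chac1, and the ER gene Herpud1 were lower in every Adenoma sample than in any MIN or Sulindac sample. The share of all genes tested with this pattern across the groups was not counted. In Sesn2 the Adenoma samples overlapped MIN, and in Dnajb9 they overlapped Sulindac. The ER chaperone gene Hspa5 and the transcription factor gene Xbp1 had their lowest mean levels after sulindac. Neither difference from Adenoma passed the test (edgeR adjusted p of 0.34 and 0.0501). Between Adenoma and MIN, 5 of the 10 genes were lower in Adenoma at a false discovery rate (FDR) of 1% (Atf4, Ddit3, Trib3, Asns and Herpud1) and 0 were higher, against 20.1% of all 13744 genes tested lower, 18.5% higher and 38.7% either way. At an unadjusted p under 0.05, edgeR called 8 lower and 0 higher, and DESeq2 at an FDR of 1% called 7 lower and 0 higher. Without Adenoma 1 or 2, edgeR called 3 lower, and without MIN 3 and Adenoma 3 together 7. The ranges of the groups did not overlap for 8 of the 10, against 62.8% of all genes tested. Between Sulindac and Adenoma, 5 were higher after sulindac (Atf4, Ddit3, Trib3, Asns and Chac1) and 0 were lower, against 8.32% of 12962 genes tested higher, 9.10% lower and 17.4% either way. At an unadjusted p under 0.05 these counts were 7 higher and 1 lower in edgeR, and DESeq2 called 7 higher and 0 lower. Without any one of the Sulindac samples, edgeR called 3 higher. The groups did not overlap, in either direction, for 8 of the 10, against 48.9% of all genes tested. Of these 8, Xbp1 was lower after sulindac and the others were higher. Both comparisons share the Adenoma samples, so a low Adenoma value enters both. The counts come from whole cultures, in which fewer cells of a type and less RNA per cell cannot be told apart.

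**Figure D1:**
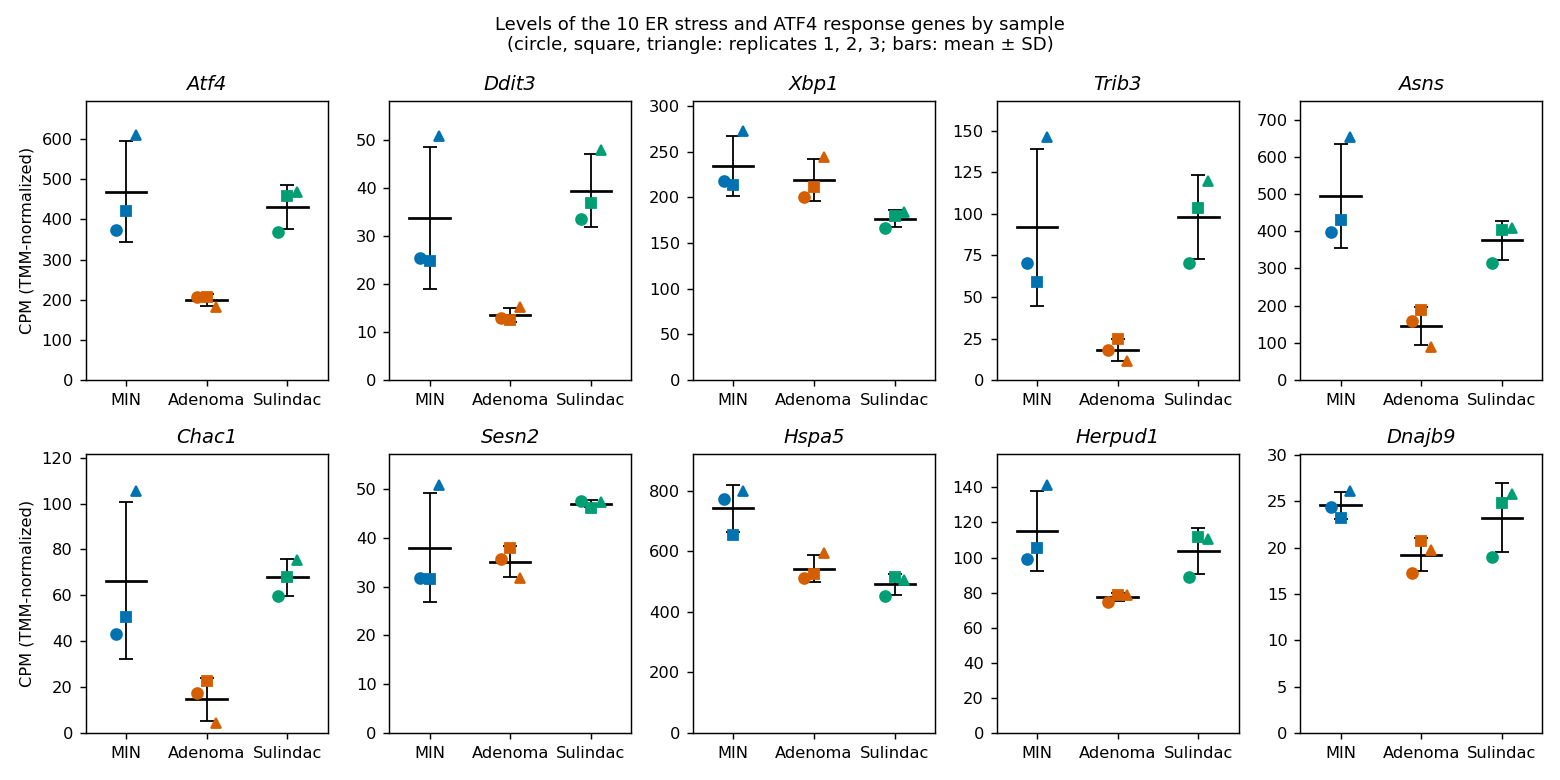
CPM (y axis, from 0) of the 10 genes in the MIN, Adenoma and Sulindac samples (x axis), with a point per sample and bars for the mean ± SD (n = 3). Trib3, Asns, Chac1, Atf4, Ddit3 and Herpud1 are lowest in the Adenoma samples, while Hspa5 and Xbp1 are not.

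Atf4 encodes the transcription factor of the integrated stress response. It stood at 372, 422 and 610.2 CPM in MIN replicates 1 to 3, at 207, 207 and 181 CPM in Adenoma, and at 368, 457 and 467 CPM in Sulindac. The Adenoma samples were all below the others, and the MIN and Sulindac samples overlapped. The means were 468 ± 126 CPM for MIN and 198 ± 15.0 CPM for Adenoma (SD, n = 3 each), and Atf4 fell by 1.24 on the log2 scale (standard error (SE) 0.19, edgeR adjusted p = 0.00058). After sulindac it rose to 431 ± 54.5 CPM (SD, n = 3), a log2 fold change of 1.12 (SE 0.12, edgeR adjusted p = 0.000493). Both changes passed the threshold under every alternative tried, with the adjusted p at most 0.0045 and 0.00396.

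Ddit3 encodes CHOP, a transcription factor induced through ATF4 and linked to cell death under lasting stress. Its levels were 25.5, 24.9 and 51.0 CPM in MIN, 12.9, 12.5 and 15.2 CPM in Adenoma and 33.7, 36.9 and 48.1 CPM in Sulindac. MIN 3 was far above the other MIN samples, and every Adenoma sample was below every other sample. The fall from MIN to Adenoma was 1.32 on the log2 scale (SE 0.27, edgeR adjusted p = 0.00358), and without Adenoma 1, 2 or 3 it no longer passed (edgeR adjusted p of 0.0152, 0.0136 and 0.0158). The rise after sulindac, 2.95-fold or 1.56 on the log2 scale (SE 0.16, edgeR adjusted p = 0.000363), passed under every alternative. Ddit3 overlaps the methionyl-tRNA synthetase gene Mars on the opposite strand over 68 bases, 7.64% of its exon bases, and reads there cannot be assigned without strand, which is not stated for the counts. Mars itself fell from MIN to Adenoma, with a log2 fold change of -1.01 (edgeR adjusted p = 0.000343), and did not pass after sulindac, at 0.47 (edgeR adjusted p = 0.0354).

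Xbp1 encodes the transcription factor activated by IRE1, which is needed for Paneth and goblet cells. It measured 218, 214 and 272 CPM in MIN, 200.3, 211 and 244 CPM in Adenoma and 167, 179.7 and 184 CPM in Sulindac. MIN and Adenoma overlapped, and all Sulindac samples were below all others. The log2 fold change was -0.10 (SE 0.13, edgeR adjusted p = 0.563) between Adenoma and MIN, with the sign turning to 0.03 when library size alone was used for scaling. Between Sulindac and Adenoma it was -0.30 (SE 0.10, edgeR adjusted p = 0.0501), which passed, at -0.46 (edgeR adjusted p = 0.0068), with library size alone.

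Among the targets of ATF4, Trib3 encodes a pseudokinase that acts back on the response. It stood at 70.5, 59.1 and 146 CPM in MIN, at 18.0, 24.5 and 11.4 CPM in Adenoma, and at 70.4, 104 and 120.1 CPM in Sulindac. Adenoma was below both other groups in every sample. From MIN to Adenoma, Trib3 was 5.10-fold lower (log2 fold change -2.35, SE 0.39, edgeR adjusted p = 0.000962), and after sulindac 5.47-fold higher than in Adenoma (log2 fold change 2.45, SE 0.29, edgeR adjusted p = 0.000742). These were the largest changes of the 10 genes in both comparisons, and both passed under every alternative.

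Asns encodes asparagine synthetase. Its CPM were 397, 431 and 654 in MIN, 158, 188 and 89.4 in Adenoma, and 315, 405 and 408 in Sulindac. Every Adenoma sample was below every MIN and Sulindac sample. The change was -1.76 on the log2 scale from MIN to Adenoma (SE 0.29, edgeR adjusted p = 0.000984) and 1.37 from Adenoma to Sulindac (SE 0.25, edgeR adjusted p = 0.00441). The first passed under every alternative, and the second was lost without Sulindac 1, 2 or 3 (edgeR adjusted p of 0.0101, 0.0188 and 0.0204).

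Chac1 encodes an enzyme that breaks down glutathione. It varied most within a group, with 43.1, 50.6 and 106 CPM in MIN and 17.3, 22.5 and 4.13 CPM in Adenoma, against 59.7, 68.1 and 75.6 CPM in Sulindac. The Adenoma samples were again the lowest, and Adenoma 3 stood far below the others. The log2 fold change from MIN to Adenoma, -2.18 (SE 0.56), missed the threshold (edgeR adjusted p = 0.0107). It passed in DESeq2 (adjusted p = 0.00881) and in the fit of all 9 samples (edgeR adjusted p = 0.00312). Without MIN 3 and Adenoma 3 together it was smaller, -1.24, and passed (edgeR adjusted p = 0.000623). The rise after sulindac, 4.63-fold or 2.21 on the log2 scale (SE 0.48, edgeR adjusted p = 0.0091), was lost without Adenoma 1 (edgeR adjusted p = 0.0167) and without Sulindac 1, 2 or 3 (edgeR adjusted p of 0.0228, 0.0293 and 0.0334), and also with library size alone (0.0141) and without the low-count filter (0.0658).

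Sesn2 encodes sestrin 2, which restrains mTORC1 and is also induced by p53 and NRF2. In MIN it was 31.7, 31.5 and 50.9 CPM, in Adenoma 35.7, 38 and 31.7 CPM and in Sulindac 47.5, 46.2 and 47.4 CPM. The Adenoma samples overlapped the MIN samples, and every Sulindac sample was above every Adenoma sample. The log2 fold change between Adenoma and MIN was -0.11 (SE 0.19, edgeR adjusted p = 0.66), and turned to 0.03 with library size alone and to 0.15 without MIN 3. After sulindac it was 0.43 (SE 0.11, edgeR adjusted p = 0.0159), past the threshold only at an FDR of 5% or in DESeq2.

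Hspa5 encodes BiP, the main chaperone of the ER and the classical target of ATF6. It stood at 774, 652 and 799.7 CPM in MIN, at 512, 524 and 593 CPM in Adenoma, and at 452, 514 and 505 CPM in Sulindac. MIN was above Adenoma in all samples, and Adenoma and Sulindac overlapped. The log2 fold change was -0.45 from MIN to Adenoma (SE 0.13, edgeR adjusted p = 0.0188) and -0.14 from Adenoma to Sulindac (SE 0.10, edgeR adjusted p = 0.34). Neither passed at an FDR of 1%, though the first did in DESeq2 (adjusted p = 0.00136), in the fit of all 9 samples (edgeR adjusted p = 0.00656), without Adenoma 3 (-0.52, edgeR adjusted p = 0.0098) and without MIN 3 and Adenoma 3 together (-0.46, edgeR adjusted p = 0.00751), and after sulindac all levels of Hspa5 were below those in MIN.

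Herpud1 encodes an ER membrane protein of the pathway that degrades misfolded proteins (ERAD). Its levels were 99.4, 105 and 141 CPM in MIN, 74.8, 78.7 and 78.9 CPM in Adenoma and 88.9, 112 and 110.5 CPM in Sulindac, with the lowest samples in Adenoma. It fell by 0.57 on the log2 scale from MIN to Adenoma (SE 0.14, edgeR adjusted p = 0.00922), a call lost without Adenoma 1, 2 or 3 (edgeR adjusted p of 0.0312, 0.0252 and 0.0202) or without MIN 2 or 3 (0.0158 and 0.012, same edgeR test), with library size alone (0.0262) and with at least 10 counts in every sample (0.0102). After sulindac the difference of 0.43 (SE 0.11, edgeR adjusted p = 0.0162) did not pass at 1%, though it did in DESeq2 (adjusted p = 0.00211). Dnajb9 encodes an ER co-chaperone of BiP that is induced by XBP1. It was 24.3, 23.2 and 26.1 CPM in MIN, 17.2, 20.7 and 19.8 CPM in Adenoma and 19.0, 24.8 and 25.8 CPM in Sulindac, so that MIN lay above Adenoma while Sulindac overlapped both. Neither the log2 fold change of -0.35 (SE 0.12, edgeR adjusted p = 0.04) nor that of 0.28 after sulindac (SE 0.14, edgeR adjusted p = 0.165) passed. Dnajb9 shares 5.5% of its 50-base stretches with the Gm6568 transcript (GENCODE M21), and its counts are uncertain to that extent.

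**Figure D2:**
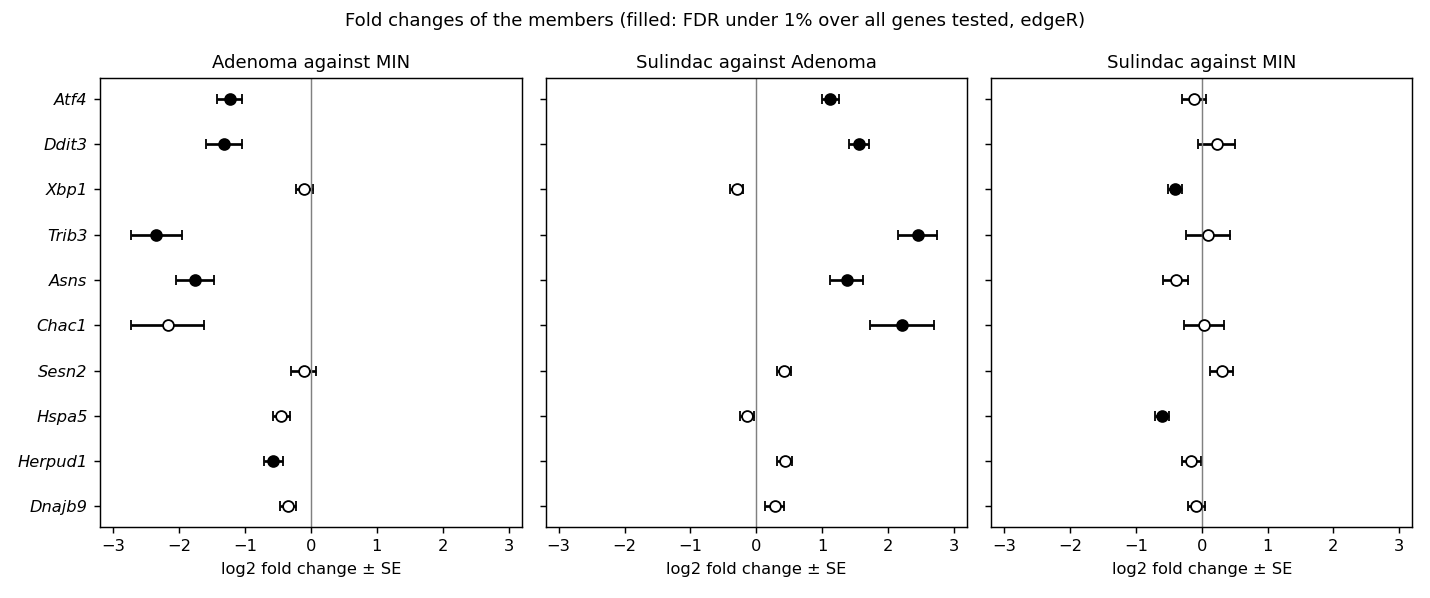
Log2 fold change ± SE (x axis) of the 10 genes (y axis) in the 3 comparisons, filled where the edgeR test passed an FDR of 1%. Atf4, Ddit3, Trib3 and Asns are filled below 0 in the left panel and above 0 in the middle one, and Hspa5 and Xbp1 alone are filled in the right one.

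Sulindac organoids had lower levels of Hspa5 and Xbp1 RNA than MIN organoids, while no difference passed the test for the other genes. Of the 10, 0 were higher in Sulindac than in MIN and 2 were lower, Hspa5 and Xbp1, against 23.0% of 13551 genes tested higher, 26.8% lower and 49.7% either way. At an unadjusted p under 0.05 edgeR also called 0 higher and 2 lower, as did DESeq2. The ranges did not overlap for 2 of the 10, against 69.6% of all genes tested. Hspa5 averaged 742 ± 78.6 CPM over MIN and 490.4 ± 33.3 CPM over Sulindac (SD, n = 3 each), which differed on the log2 scale by -0.60 (SE 0.11, edgeR adjusted p = 0.0011). Xbp1 averaged 235 ± 32.8 CPM over MIN and 177 ± 9.03 CPM over Sulindac (SD, n = 3 each), which differed on the log2 scale by -0.41 (SE 0.11, edgeR adjusted p = 0.00893) that missed the threshold with any of the 6 samples left out, at an edgeR adjusted p of 0.0107 to 0.0387, and in the fit of all 9 samples (0.0121). The differences of the ATF4 targets, none of which passed, were 0.09 (SE 0.33) for Trib3, 0.03 (SE 0.30) for Chac1, -0.40 (SE 0.19, edgeR adjusted p = 0.105) for Asns and 0.31 (SE 0.18) for Sesn2 on the log2 scale, and 0.23 (SE 0.28) for Ddit3 and -0.12 (SE 0.18) for Atf4. In MIN, the highest value of each was that of MIN 3. Without that sample, Ddit3 (log2 fold change 0.64, edgeR adjusted p = 0.00398), Chac1 (0.53, edgeR adjusted p = 0.0033) and Sesn2 (0.57, edgeR adjusted p = 0.000291) were higher in Sulindac than in MIN.

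**Figure D3:**
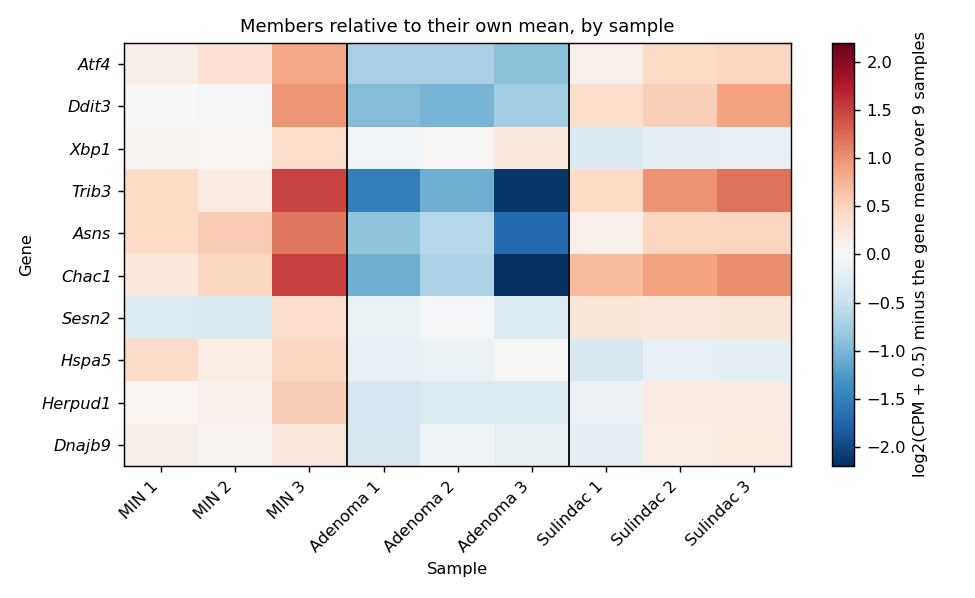
Log2(CPM + 0.5) minus the gene's mean over the 9 samples (color scale) for the 10 genes (rows) in each sample (columns). Every gene but Hspa5 and Xbp1 is below its mean in all Adenoma samples, and MIN 3 is the highest MIN sample in every row.

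Scaled for length (mean CPM per kilobase of exons in GENCODE M21), the order of the 10 genes changed between the groups. In MIN, Atf4 (271), Asns (202) and Hspa5 (198) led, followed by Xbp1 (87.2), Herpud1 (59.1), Trib3 (45.4), Chac1 (40.6) and Ddit3 (38), with Sesn2 (10.9) and Dnajb9 (9.63) last. In Adenoma, Hspa5 (145) led before Atf4 (115) and Xbp1 (81.3), and Asns (59.4) came next. Chac1 (8.95) and Trib3 (8.87) were then at the level of Dnajb9 (7.55) and Sesn2 (10.1). In Sulindac, Atf4 (249.7) and Asns (154) were again the first, ahead of Hspa5 (131). These levels were not tested between genes, and the neighbors Asns and Hspa5 in MIN, or Trib3, Chac1 and Ddit3 in MIN and in Sulindac, were closer than the spread of their replicates.

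The same comparison was made for other genes of the pathway, grouped in 6 lists. Their counts stand beside shares over all genes tested of 20.1% lower and 18.5% higher in Adenoma than in MIN. From Adenoma to Sulindac these shares were 9.10% lower and 8.32% higher, and from MIN to Sulindac 26.8% lower and 23.0% higher. Between Adenoma and MIN, most genes that supply charged tRNA, and 11 of 20 that supply amino acids, fell as Asns did. Of the 12 aminoacyl-tRNA synthetase genes, which load amino acids on tRNA, 11 fell and 0 rose in edgeR (12 lower and 0 higher both in DESeq2 and at an unadjusted p under 0.05), with a median log2 fold change of -1.02 against -0.01 for all genes tested and -0.90 for the 10 genes. Nars had the largest change, -1.72 (SE 0.21), with 789.7 ± 168 CPM across MIN and 239 ± 51.2 CPM across Adenoma (SD, n = 3 each), followed by Wars (-1.60), Tars (-1.30) and Lars (-1.08). Of the 20 genes for amino acid synthesis and transport, 11 fell and 1 rose (0 rose without MIN 2), with a median of -0.98. Slc7a3, a transporter of cationic amino acids, went from 212 to 547 counts a sample in MIN to 3 to 8 in Adenoma, near the floor. The mitochondrial folate enzyme gene Aldh1l2 fell by 3.51 (SE 0.50), the cystathionine gamma-lyase gene Cth by 3.43 (SE 0.36), and Slc7a1, another cationic amino acid transporter, by 1.85 (SE 0.27).

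The 20 sensors and regulators had 7 lower and 0 higher genes, with 1 higher at an unadjusted p under 0.05 and 0 in DESeq2, and a median of -0.45. The sensor genes Eif2ak3 (PERK, log2 fold change 0.02, edgeR adjusted p = 0.927), Ern1 (IRE1alpha, 0.07, edgeR adjusted p = 0.837) and Atf6 (-0.45, edgeR adjusted p = 0.093) did not pass. The genes that fell most were Creb3l3, with 1091 to 3293 counts a sample in MIN and 6 to 8 in Adenoma, Ern2, the IRE1beta of gut epithelium (-3.29, SE 0.17), Atf5 (-2.92, SE 0.41) and Nupr1 (-2.92, SE 0.43). Creb3l3 encodes a membrane-bound transcription factor of liver and gut, and Atf5 one translated like ATF4. Among 16 ER chaperones and folding enzymes only 2 fell, P4hb by 0.87 (SE 0.13) and Dnajb11 by 0.64 (SE 0.11), and 0 rose (also 0 at an unadjusted p under 0.05 and in DESeq2), with a median of -0.13. Of 18 ERAD and translocation genes 6 fell, among them Derl3 (-1.26), Edem1 (-0.86), Sel1l (-0.80) and Ssr1 (-0.65), and 0 rose (3 at an unadjusted p under 0.05 and 1 in DESeq2). The median was -0.12. Derl3 had low counts, 24 to 41 a sample in MIN and 11 to 13 in Adenoma. Without MIN 1 the count of 6 was 3, as with library size alone.

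The 12 other stress-induced outputs of ATF4 and CHOP went both ways between Adenoma and MIN, with 4 higher, 3 lower and a median of 0.41. Stc2, which encodes stanniocalcin 2, fell by 2.03 (SE 0.20) and the growth arrest gene Gadd45a by 1.74 (SE 0.40). The genes for the BH3-only death proteins BIM and PUMA rose, Bcl2l11 from 19.8 ± 0.201 to 60.5 ± 6.07 CPM (SD, n = 3 each; log2 fold change 1.61, SE 0.11) and Bbc3 from 8.0 ± 4.45 to 27.4 ± 12.1 CPM (SD, n = 3 each; 1.78, SE 0.45). Both are also known targets of other factors, Bbc3 of p53 and Bcl2l11 of FOXO proteins. Without MIN 1 or Adenoma 2, 2 genes of this list were higher in place of 4.

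After sulindac, some genes of the lists tied to ATF4 rose, while others did not pass the test. Of 19 amino acid synthesis and transport genes tested, 6 were higher than in Adenoma (14 in DESeq2) and 1 was lower, with a median log2 fold change of 0.86 against -0.01 for all genes tested and 0.78 for the 10 genes. Slc7a11, the cystine transporter xCT, rose 9.11-fold, from 94.5 ± 25.2 to 857 ± 137 CPM (SD, n = 3 each; log2 fold change 3.19, SE 0.22, edgeR adjusted p = 9.15e-05), above its level in MIN of 136 ± 67.7 CPM (SD, n = 3). It is also a known target of NRF2. The glycine transporter gene Slc6a9 rose from 33.6 ± 3.52 to 183 ± 17.9 CPM (SD, n = 3 each; 2.45, SE 0.13), and Aldh1l2 by 2.71 (SE 0.43). The cystathionine beta-synthase gene Cbs went the other way, from 13.4 ± 3.97 to 1.89 ± 1.04 CPM (SD, n = 3 each; -2.81, SE 0.39). Of the aminoacyl-tRNA synthetases 7 of 12 rose and 0 fell (11 and 0 in DESeq2 and at an unadjusted p under 0.05), with a median of 0.67, led by Cars (1.03), Gars (0.92), Aars (0.86) and Yars (0.77). This count was 2 to 4 without Sulindac 1, 2 or 3 or without Adenoma 1, and 3 with library size alone.

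Of the 12 stress-induced outputs 6 rose after sulindac and 0 fell (8 and 0 in DESeq2 and at an unadjusted p under 0.05), with a median of 0.88. Ero1l, an ER oxidase gene that CHOP induces and that also responds to low oxygen, rose from 759.7 ± 98.5 to 1999 ± 222 CPM (SD, n = 3 each; log2 fold change 1.41, SE 0.15). Gadd45a rose by 1.34 (SE 0.16), Bcl2l11 by 1.04 (SE 0.11), to 124 ± 7.78 CPM (SD, n = 3), and Vldlr by 0.95 (SE 0.13). Bcl2l11 therefore rose in both steps, from MIN to Adenoma and from Adenoma to Sulindac, unlike Ddit3. Of the 19 sensors and regulators tested, 1 rose, Nupr1 by 2.71 (SE 0.40), and 0 fell (8 higher and 4 lower at an unadjusted p under 0.05, 5 and 2 in DESeq2), with a median of 0.16. Without Adenoma 2 or 3, 2 or 3 of them rose.

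Among the 16 chaperones and folding enzymes 2 fell after sulindac, Pdia6 by 0.51 (SE 0.11) and Pdia4 by 0.47 (SE 0.10), and 0 rose (2 at an unadjusted p under 0.05 and 0 in DESeq2), with a median of -0.28. The count of 2 was 0 without Sulindac 1, 2 or 3 or without Adenoma 1 or 2, and 6 with library size alone. Of the 18 ERAD and translocation genes 4 rose, among them Sel1l (0.79), Edem1 (0.54) and Derl1 (0.53), and 0 fell (3 at an unadjusted p under 0.05 and 0 in DESeq2), with a median of 0.09. That count was 0 without Sulindac 3, 1 without Sulindac 1, 2 without Sulindac 2 or Adenoma 2, and 0 with library size alone. Against MIN, 10 of the 16 chaperone genes were lower in Sulindac and 0 higher (0 also at an unadjusted p under 0.05 and in DESeq2), with a median of -0.43, as Hspa5 was, while 5 were lower without MIN 1 or Sulindac 1 and 6 without Sulindac 3. In the same comparison 8 of the 12 stress-induced outputs were higher (4 without MIN 2, Sulindac 2 or Sulindac 3) and 1 was lower. Their median was 1.06, against -0.10 for the 10 genes and -0.03 for all genes tested. Of the 12 synthetases 7 were lower in Sulindac than in MIN and 0 higher (1 in DESeq2), with a median of -0.41. This count was 4 to 5 with each sample left out. Of the 20 amino acid synthesis and transport genes 6 were lower and 5 higher, with a median of -0.47. The 20 sensors and regulators had 7 lower and 1 higher, and the 18 ERAD and translocation genes 5 lower and 2 higher.

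**Figure D4:**
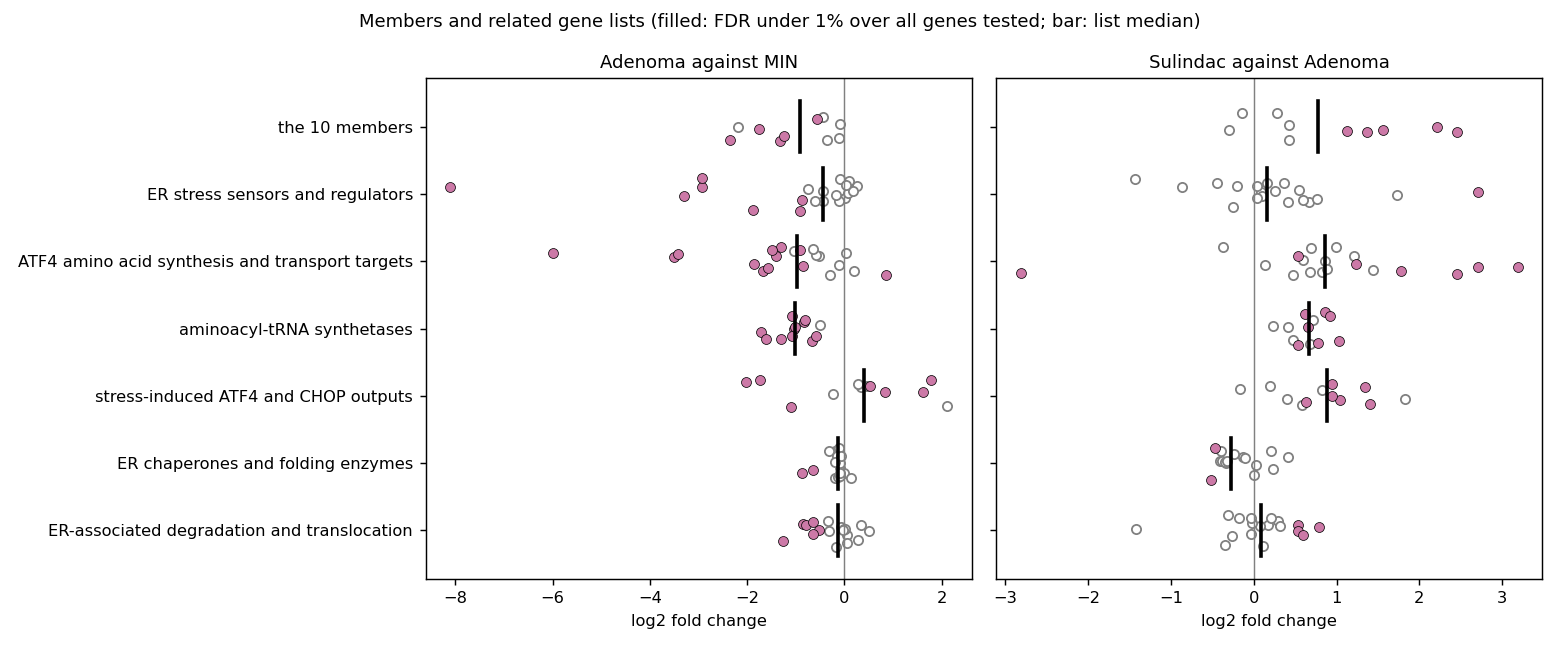
Log2 fold change (x axis) of each gene tested in the 10 genes and the 6 lists (rows), filled at an FDR of 1%, with a bar at the median. The left panel shows Adenoma against MIN and the right panel Sulindac against Adenoma. The synthetases have medians of -1.02 and 0.67, and the chaperones of -0.13 and -0.28.

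Markers of epithelium and of the differentiated gut cells moved between the groups as well. Of the 5 epithelial genes, 3 were lower in Adenoma than in MIN and 0 higher (4 and 1 in DESeq2). After sulindac 2 were higher and 0 lower (3 and 1 at an unadjusted p under 0.05 in edgeR). The summed level of the 4 Paneth cell genes was 7705 to 10504 CPM for MIN, 879 to 1237 CPM for Adenoma and 173 to 264 CPM for Sulindac. Most of the Adenoma and Sulindac sums came from Mmp7, which averaged 187, 704 and 157 CPM in MIN, Adenoma and Sulindac. Lyz1 averaged 4686, 41.5 and 13.3 CPM, so the sums do not show the change of each gene. The 5 goblet cell genes summed to 948 to 1215, 90.4 to 170.1 and 37.4 to 83.0 CPM, and the 3 enterocyte genes to 1921 to 2501, 2.30 to 3.05 and 0.826 to 1.83 CPM. In the 3 enteroendocrine genes the sums were 231 to 476 CPM in MIN and at most 0.407 CPM in the other samples. Between Adenoma and MIN, 3 of the 4 Paneth cell genes fell and 1, Mmp7, rose, and all 5 goblet, 3 enteroendocrine and 3 enterocyte genes fell. Between Sulindac and Adenoma, when Atf4, Ddit3, Trib3, Asns and Chac1 rose, 3 of 4 Paneth and 1 of 5 goblet cell genes fell. The 1 enterocyte gene tested also fell, and 0 of these marker genes rose (edgeR, also 0 at an unadjusted p under 0.05 and in DESeq2). At an unadjusted p under 0.05, edgeR called 4 Paneth and 4 goblet cell genes lower, and DESeq2 at an FDR of 1% called 4 and 1. Some genes of the mesenchyme and plasma cell lists also moved, at low levels, and which cells expressed them was not tested. The 4 mesenchyme genes summed to 0.385 to 0.763, 1.91 to 2.28 and 0.764 to 1.08 CPM in the 3 groups, highest in Adenoma. Of these, Col1a2 and Col3a1 had 0 counts in every sample. Pdgfra had 5 to 8 counts a sample in MIN and 25 to 39 in Adenoma, and rose (log2 fold change 2.49, edgeR adjusted p = 0.000492). Col1a1 stood at 10 to 22 counts in MIN, 32 to 54 in Adenoma and 11 to 17 in Sulindac, and the fall after sulindac passed (-1.48, edgeR adjusted p = 0.00976), while the difference between Adenoma and MIN did not (1.68, edgeR adjusted p = 0.0101). The 4 plasma cell genes summed to 269 to 443, 394 to 521 and 393 to 437 CPM, nearly all of it Sdc1, which epithelium also expresses and which did not pass in any comparison. Igj had at most 5 counts. Between Adenoma and MIN, Mzb1 rose from 0 to 4 counts a sample to 34 to 42, and Prdm1 from 61 to 69 counts to 245 to 453. The part of all these cells in the results was not tested.

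The genes whose profile lay nearest to those of the transcription factors were found over the 9 samples, as the root mean square difference of log2(CPM + 0.5) after subtracting each gene's mean. For Atf4 they were Stard5 (0.107), Crim1 (0.146) and Dhrs7 (0.154), against a median of 0.679 over 13861 genes. For Ddit3 they were Sqrdl (0.197), Eif4ebp1 (0.207) and again Stard5 (0.215), against a median of 0.805. Stard5 had mean levels of 70.3, 32.9 and 74.1 CPM in MIN, Adenoma and Sulindac, low in Adenoma like Atf4 and Ddit3. For Xbp1, whose level varied little, they were Ebna1bp2 (0.0681), 1810010D01Rik (0.0710) and BC031361 (0.0711), against a median of 0.385. The last pair had group means of at most 1.77 CPM, and Ebna1bp2 averaged 68.6, 60.8 and 52.4 CPM in MIN, Adenoma and Sulindac.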

How the data were processed

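RNA-seq was performed on 9 organoid samples. The authors deposited raw counts per gene symbol, without normalization, and the submitters' processing notes list Bowtie2 2.2.4, RSEM and the mm9 build. The annotation, strand setting and filters are not given in the sources used here. Symbols turned into dates (27 rows) are not named. For MIN 1 there were separate runs and their sum, which held in all 23955 rows. The runs differed by little more than sampling noise (chi-square per gene 1.19), and the sum served as 1 sample. Sample titles gave the groups and replicate numbers.

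Low counts were removed from the deposited table with filterByExpr, and groups were compared after TMM scaling with edgeR 4.0.16 (robust glmQLFit, glmQLFTest; R 4.3.3), with only the compared groups in each fit. P-values were adjusted over all genes tested by the Benjamini-Hochberg method, with a threshold of 1% FDR. The SE is the size of the log2 fold change over the square root of F. The script was tested on simulated data. Same-numbered Adenoma and MIN samples deviated together from their group means (correlation across genes 0.114 to 0.192 in all 3 pairs, against -0.149 to 0.0703 for other pairs). Among replicates 1 and 2 the difference was small, 0.125 and 0.114 for the same number against 0.0540 and 0.0703. The check therefore rests largely on MIN 3 and Adenoma 3, and deviations from a mean of 3 samples are not independent. Any pairing is read from the data, not the labels, and a replicate block was fitted as an alternative. The other comparisons were not paired by this check.

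Alternatives were RLE factors, no scaling beyond library size, a filter of at least 10 counts in all samples or none, 1 fit over the 9 samples, the replicate block, DESeq2 1.42.0, an FDR of 5% and leaving out each sample. Leaving out MIN 3 and Adenoma 3 together was chosen after seeing the data. The 10 genes, the lists and the tests were chosen with earlier results of these data known. All 10 are named with each value, and from each list up to 4 genes per comparison with Adenoma, those with the largest changes among genes that passed without overlap. The values of 1 list gene that the rule would name are not reported here. Eif2ak3, Ern1, Atf6 and Mars were named after their values were seen. Promoters came from RefSeq GRCm38.p6, and exon lengths, overlaps and shared 50-base stretches from GENCODE M21.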

Additional observations from a re-analysis of the deposited data

How the results depend on the processing

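Over the alternatives, 125 of 150 values of the 10 genes in Adenoma against MIN kept their direction and side of the threshold, 10 lost the call, 10 gained it and 5 turned sign. In Sulindac against Adenoma these were 125 of 140, 10, 5 and 0, and in Sulindac against MIN 121 of 140, 7, 3 and 9. The cause was not tested. The 5 genes lower in Adenoma than MIN were 8 at an FDR of 5% and 3 to 5 with each sample left out. The 5 higher after sulindac were 3 to 5 with each sample left out, and 1 gene was lower with library size alone. The 2 lower in Sulindac than MIN were 1 in the fit of all 9 samples and 1 with each sample left out, when 0 to 3 were higher.

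With library size alone, Xbp1 and Sesn2 turned to 0.031 and 0.028 (log2 fold change) in Adenoma against MIN. With each sample left out, Xbp1 lay between -0.19 and 0.019 and Sesn2 between -0.24 and 0.15, and without MIN 3 and Adenoma 3 Sesn2 was 0.22. In Sulindac against MIN the ranges with each sample left out were -0.26 to 0.11 for Atf4, -0.14 to 0.59 for Trib3, -0.21 to 0.53 for Chac1, -0.25 to 0.013 for Herpud1 and -0.17 to 0.038 for Dnajb9. Library size alone moved the median over all genes tested, on the log2 scale, from -0.01 to 0.12 in Adenoma against MIN and from -0.01 to -0.18 in Sulindac against Adenoma, where higher genes then made up 23.3% of those called in place of 47.8%. In that comparison the calls over all genes, 1078 higher and 1179 lower, were 1778 higher in DESeq2, 2034 and 2374 at an FDR of 5%, and as few as 423 and 386 without Sulindac 3.

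The replicate block changed no call of the 10 genes in Adenoma against MIN, with 5 lower, and made Chac1 miss the threshold after sulindac (edgeR adjusted p = 0.0101), with 4 of the 10 higher. In both comparisons with Sulindac the samples share only a number (2 of 3 pairs over a correlation of 0.1), and the block gave 872 higher and 1061 lower genes in place of 1078 and 1179 after sulindac. The lowest count of the 10 genes was 143, that of Chac1 in Adenoma 3, so that depth left none of them near the floor.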
